A study of Mus musculus with 4 samples.

Results

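The SOX transcription factor genes Sox2, Sox3, Sox4, Sox9, Sox11, Sox12, Sox13, Sox15, Sox18 and Sox21 were followed in 4 RNA‐seq libraries of mouse stem cells. These 10 genes were taken by name, out of the 20 Sox genes listed for the mouse, with Sox7 and Sox17 left aside, and out of 37620 gene identifiers in the count tables. All 10 had an identifier, and 9 of them reached 1 CPM (counts scaled to a common library size) in at least 1 library. Sox18 did not.

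The libraries came from R1 mouse embryonic stem cells (mESCs) in 3 media and from trophoblast stem cells (TSCs) of the F4 line, with 1 library for each. R1 cells, a line kept without feeders, were grown for 2 days in medium with serum and no added LIF. All 3 R1 cultures held 2i, the GSK3 inhibitor CHIR99021 at 3 µM with the MEK inhibitor PD0325901 at 1 µM. The first (2i−L) had nothing more, the second (2iJ) had a JAK inhibitor at 2 µM, and the third (2iJ+B−A) had that inhibitor with BMP4 at 10 ng/ml and ALK5 inhibitor II at 10 µM. TSCs also carry a label of day 2, and their medium is not described in the labels. No condition has a replicate, so every difference below is a difference between libraries and no p‐value is given. Each condition is also a single line, and TSCs differ from the R1 cultures in line, lineage and medium at once, so these cannot be told apart. The same holds for BMP4 and the ALK5 inhibitor, which were added together. The authors adjusted their RNA‐seq data for batch effects between experiments done on different days. The raw counts used here carry no such adjustment, and which libraries shared an experiment day is not known here.

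SOX proteins bind DNA through an HMG box, which enters the minor groove and bends the helix, and they act with partner factors that decide which sites are used. In mESCs, Sox2 and the POU factor Oct4 bind neighboring sites in composite elements near pluripotency genes. Trophoblast stem cells also depend on Sox2, downstream of FGF, although they lack Oct4. The family is divided into groups by the similarity of the HMG box: B1 holds Sox2 and Sox3, B2 Sox21, C Sox4, Sox11 and Sox12, D Sox13, E Sox9, F Sox18 and G Sox15.

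The libraries held 33913984 to 36964392 counts on genes, so that 3 counts, taken as the smallest detectable signal, were 0.0799 to 0.0902 CPM. The labelled cell types were checked against marker genes. The 8 TSC markers found in the tables summed to 1513 CPM in TSCs and 87.4 to 226 CPM in the R1 libraries. The 9 pluripotency markers summed to 577 CPM in TSCs and 2884 to 4760 CPM in R1. Of that sum in TSCs, Esrrb made up 248, Utf1 174 and Zfp42 123 CPM, while Oct4 stood at 1.34 and Nanog at 2.65 CPM. Utf1 alone among the 9 was higher in TSCs than in R1. The 7 feeder fibroblast markers summed to 3.62 CPM in TSCs, with Col1a2 at 0 counts and 4 of the 7 at 3 counts or fewer, and to 89.2 to 279 CPM in R1, or 20.3 to 37.5 CPM in R1 without Acta2. These are bulk samples, so fewer cells with a transcript and less transcript per cell cannot be told apart.

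Sox2 was the most abundant of the 10 genes in every library and held its smallest share in TSCs. Levels of different genes were set side by side as CPM per kilobase of annotated exon. On that scale Sox2 was at 197, 189, 120.4 and 62.5 in 2i−L, 2iJ, 2iJ+B−A and TSCs. It made up 81.5%, 82.0%, 77.1% and 64.8% of the summed level of the 10 genes in 2i−L, 2iJ, 2iJ+B−A and TSCs. Both the level and the share of Sox2 were thus lowest in TSCs. The summed level itself was 242, 230.1, 156 and 96.5 in 2i−L, 2iJ, 2iJ+B−A and TSCs. By this length Sox15 was second in each library, at 14.4, 13.9, 10.0 and 14.1 CPM per kilobase in the same order. The third place went to Sox13 in 2i−L (13.8) and 2iJ (9.67), to Sox4 in 2iJ+B−A (8.77) and to Sox21 in TSCs (8.32). With the length of the longest transcript, which is shorter for Sox13, that gene stood above Sox15 in 2i−L, at 16.1 CPM per kilobase, and below it in the other libraries.

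**Figure D1:**
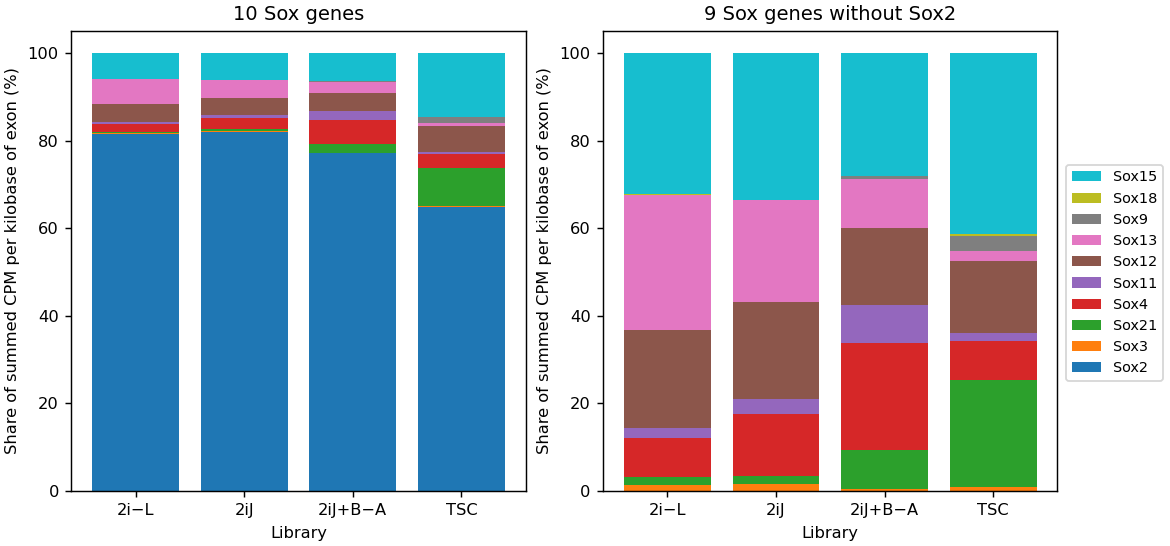
Share of the summed CPM per kilobase of exon held by each Sox gene in the 4 libraries, for all 10 genes (left) and for 9 genes without Sox2 (right). Sox2 holds 64.8% to 82.0% of the left bars, and on the right Sox21 takes 1.73% in 2i−L and 24.5% in TSCs while Sox13 takes 30.9% and 2.47%.

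Without Sox2, the other 9 genes summed to 44.7, 41.4, 35.8 and 33.9 CPM per kilobase in 2i−L, 2iJ, 2iJ+B−A and TSCs. Within that sum Sox13 held 30.9%, 23.4%, 11.1% and 2.47% in 2i−L, 2iJ, 2iJ+B−A and TSCs. Sox21 held 1.73%, 1.95%, 8.79% and 24.5% in the same order. Sox21 thus held less than Sox13 in 2i−L and more in TSCs. The level of Sox2 per kilobase was 254, 234, 38.3 and 7.52 times that of Sox21 in 2i−L, 2iJ, 2iJ+B−A and TSCs. The SoxC genes Sox4, Sox11 and Sox12 together held 6.23%, 7.13%, 11.7% and 9.51% of the sum of all 10 genes in 2i−L, 2iJ, 2iJ+B−A and TSCs.

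**Figure D2:**
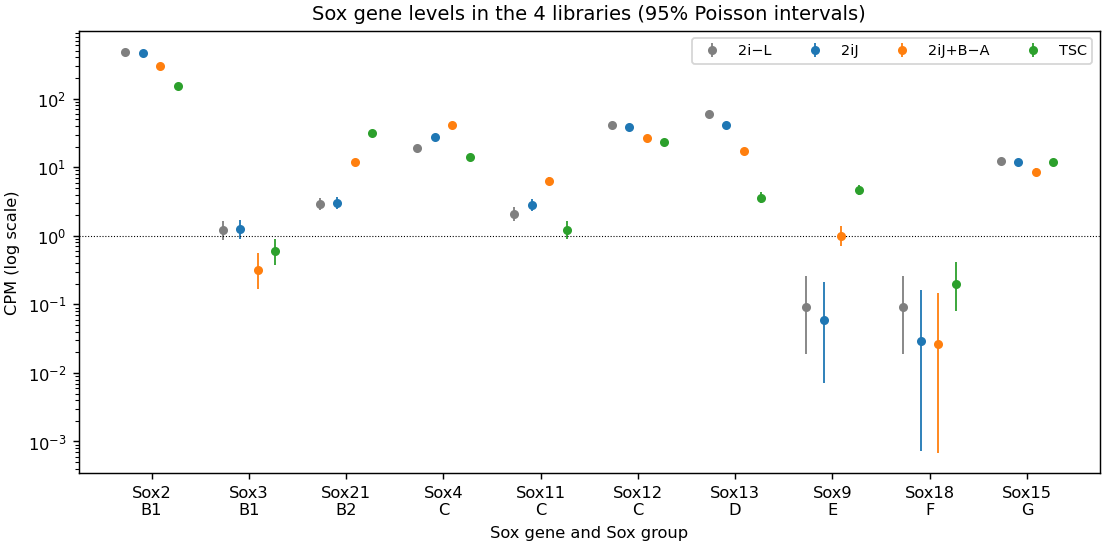
CPM of each Sox gene on a log axis in the 4 libraries, with 95% Poisson intervals that cover counting error only. Sox2, Sox12 and Sox13 step down from 2i−L to TSCs, Sox21 and Sox9 step up from 2iJ to 2iJ+B−A to TSCs, and Sox4 and Sox11 are highest in 2iJ+B−A. The dotted line marks 1 CPM.

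Sox2 (ENSMUSG00000074637) lies on chr3:34548927-34551383 of NCBIM37, in a single exon within the long noncoding gene Sox2ot on the same strand. It had 16105, 15921, 11112 and 5394 counts in 2i−L, 2iJ, 2iJ+B−A and TSCs, which were 484, 464, 296 and 154 CPM. The 4 levels descended in that order, and each pair of neighbors differed beyond counting error. In 2iJ+B−A Sox2 was 1.57-fold lower than in 2iJ, a log2 ratio of −0.65 (95% counting interval −0.68 to −0.61). In TSCs it was 3.02-fold lower than in 2iJ, with a log2 ratio of −1.59 (interval −1.64 to −1.55). By CPM Sox2 stood at place 321 of all genes in 2i−L and at place 1354 in TSCs.

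Sox3 (ENSMUSG00000045179, chrX:58144545-58146605), the other SoxB1 gene, known from neural and pituitary development, was close to the minimum of 1 CPM. It had 40, 43, 12 and 21 counts in 2i−L, 2iJ, 2iJ+B−A and TSCs. Its level was below 1 CPM in 2iJ+B−A (0.319) and in TSCs (0.598), and those libraries could not be told apart by counting error. Between 2iJ+B−A and 2iJ its log2 ratio was −1.10 (interval −1.51 to −0.61).

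Sox21 (ENSMUSG00000061517, chr14:118632454-118636252) encodes the SoxB2 protein, which represses genes that SoxB1 proteins activate. It had 98, 105, 449 and 1109 counts in 2i−L, 2iJ, 2iJ+B−A and TSCs, or 2.95, 3.06, 11.95 and 31.6 CPM. Its levels in 2i−L and 2iJ did not differ beyond counting error, and the other steps of the order did. It was 3.91-fold higher in 2iJ+B−A than in 2iJ and 10.3-fold higher in TSCs than in 2iJ. TSCs were in turn 2.64-fold above the BMP4 culture (log2 ratio 1.37, interval 1.21 to 1.52).

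Among the SoxC genes, known for roles in neural and mesenchymal progenitors, Sox4 and Sox11 shared an order of levels that Sox12 did not have. Sox4 (chr13:29040788-29045582) had 642, 964, 1579 and 503 counts in 2i−L, 2iJ, 2iJ+B−A and TSCs (19.3, 28.1, 42.0 and 14.3 CPM). Sox11 (chr12:28025562-28027574) had 70, 97, 236 and 43 counts in the same order (2.11, 2.83, 6.28 and 1.23 CPM). Both were highest in 2iJ+B−A and lowest in TSCs. TSCs were 2.93-fold below 2iJ+B−A for Sox4 and 5.13-fold below for Sox11. For Sox11, 2iJ and 2i−L did not differ beyond counting error, and for Sox4 they did, with a log2 ratio of 0.53 (interval 0.39 to 0.67). Sox12 (chr2:152219347-152223782) had 1386, 1310, 989 and 817 counts in 2i−L, 2iJ, 2iJ+B−A and TSCs (41.7, 38.2, 26.3 and 23.3 CPM). It descended in the same order as Sox2, and was 1.64-fold lower in TSCs than in 2iJ.

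Sox13 (ENSMUSG00000070643, chr1:135278880-135320954), a SoxD gene whose protein lacks a known activation domain of its own, spanned the widest range among the well expressed members that were lowest in TSCs. It had 1981, 1432, 643 and 127 counts in 2i−L, 2iJ, 2iJ+B−A and TSCs, or 59.6, 41.7, 17.1 and 3.62 CPM. All 3 steps were beyond counting error. It was 2.44-fold lower in 2iJ+B−A than in 2iJ, with a log2 ratio of −1.26 (interval −1.39 to −1.13). It was 11.5-fold lower in TSCs than in 2iJ.

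Sox9 (ENSMUSG00000000567, chr11:112643538-112649074), the SoxE gene of cartilage and testis development, was at or under the smallest detectable signal in 2i−L and 2iJ, with 3 and 2 counts. It had 38 counts in 2iJ+B−A (1.01 CPM) and 165 in TSCs (4.70 CPM). Relative to 2iJ, its log2 ratio was 1.44 in the BMP4 culture (interval 0.99 to 1.62) and 3.22 in TSCs (interval 2.84 to 3.37), and both rest on the 2 counts in 2iJ. Sox9 reached 1 CPM only in the libraries in which it was high, so a difference was built into its being compared.

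Sox18 (chr2:181404541-181406345), a SoxF gene of blood and lymph vessels, had 3, 1, 1 and 7 counts in 2i−L, 2iJ, 2iJ+B−A and TSCs. Only TSCs were above the smallest detectable signal, at 0.199 CPM (95% Poisson interval 0.0802 to 0.411), and no neighbors in the order differed beyond counting error.

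Sox15 (ENSMUSG00000041287, chr11:69468816-69470229) is the SoxG gene, whose protein can pair with Oct4 in mESCs and with Hand1 in trophoblast giant cells. It had 413, 410, 325 and 425 counts in 2i−L, 2iJ, 2iJ+B−A and TSCs, or 12.4, 11.9, 8.65 and 12.1 CPM. The levels in 2i−L, TSCs and 2iJ did not differ beyond counting error, and the log2 ratio of TSCs to 2iJ was 0.02 (interval −0.17 to 0.21). The level in 2iJ+B−A was 1.38-fold below that in 2iJ.

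RefSeq promoters (250 bases before to 50 after the start) were found for 7 of the 10 genes, from a table built on GRCm38.p6, and the 250 bases before each start matched NCBIM37 exactly once near the gene. Those of Sox4, Sox13 and Sox15 held none of the letters capitalized below before the start, and are not shown. Relative to the annotated gene start, the RefSeq start lay at 165 bases for Sox13 and −277 bases for Sox15, with minus meaning upstream. Their windows thus do not cover the stretch just before the annotated start in full. Sox13 descended from 2i−L to TSCs as Sox2 and Sox12 did. Sox4 was higher in 2iJ+B−A than in 2iJ, as Sox21 and Sox11 were. The stretches before the starts of Sox2, Sox12, Sox21 and Sox11 are shown. Each runs 5′ to 3′ toward the start, with coordinates on NCBIM37. Capitals mark matches, on either strand, to the letters of an Oct octamer (ATGCAAAT), a Sox core (ACAAAG), an AP‐2 site (GCCNNNGGC) or a TATA box (TATAAA).
Sox2 (chr3:34548667-34548916, plus strand): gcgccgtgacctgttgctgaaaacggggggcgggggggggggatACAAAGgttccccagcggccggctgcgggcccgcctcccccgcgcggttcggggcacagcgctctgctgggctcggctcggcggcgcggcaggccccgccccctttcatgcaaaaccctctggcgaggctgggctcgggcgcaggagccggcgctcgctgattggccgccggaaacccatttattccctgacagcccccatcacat
Sox12 (chr2:152223783-152224032, minus strand): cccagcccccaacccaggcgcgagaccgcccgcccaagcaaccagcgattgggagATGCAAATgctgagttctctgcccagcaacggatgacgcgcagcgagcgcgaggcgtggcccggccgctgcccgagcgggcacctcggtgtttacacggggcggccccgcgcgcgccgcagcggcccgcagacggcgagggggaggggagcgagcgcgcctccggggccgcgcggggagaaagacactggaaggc
Sox21 (chr14:118636253-118636502, minus strand): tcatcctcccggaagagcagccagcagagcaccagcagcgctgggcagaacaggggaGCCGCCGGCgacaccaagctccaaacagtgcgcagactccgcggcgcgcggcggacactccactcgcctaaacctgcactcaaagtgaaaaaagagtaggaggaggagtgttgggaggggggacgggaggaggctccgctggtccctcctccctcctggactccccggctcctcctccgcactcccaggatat
Sox11 (chr12:28027584-28027833, minus strand): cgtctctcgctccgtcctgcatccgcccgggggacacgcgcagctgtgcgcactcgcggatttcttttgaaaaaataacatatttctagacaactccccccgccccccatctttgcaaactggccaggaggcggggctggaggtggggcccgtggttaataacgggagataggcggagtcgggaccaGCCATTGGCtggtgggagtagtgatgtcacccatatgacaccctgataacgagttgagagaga

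The Sox core letters were found in the window of Sox2 alone among the 7, and 16.5% of all 32851 promoter windows of the table hold them. The octamer letters were found in Sox12 alone, against 1.60% of all windows, and there they overlap an E‐box (CANNTG). The AP‐2 letters were found in Sox21 and Sox11, against 13.7% of all windows. No TATA letters were found in the 7 windows, against 12.4% of all. The E‐box letters were found in Sox4, Sox11, Sox12 and Sox15, against 66.2% of all. The window of Sox12 held 35 CG pairs, that of Sox2 27, that of Sox13 31 and that of Sox15 5, where the median window held 6. These are matches of letters and not measurements of binding.

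Adding the JAK inhibitor to 2i without LIF was compared first, to see how the family stood before BMP4. Between 2iJ and 2i−L, none of the 9 genes compared lay past a log2 ratio of 1 in size, the mark used for all comparisons, which is a change of 2-fold. Of all 14263 genes at 1 CPM or more in at least 1 library, 1.23% were past it with the higher level in 2iJ and 0.918% with the lower. Sox4 was higher in 2iJ beyond counting error, and Sox2, Sox12 and Sox13 were lower. Sox13 had the most negative log2 ratio of the 9, −0.51 (interval −0.61 to −0.41). The median log2 ratio of the 9 genes was −0.05 and that of all genes 0.00.

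The 2iJ+B−A culture was made to ask whether mESCs turn on trophectoderm genes as they leave pluripotency. Between 2iJ+B−A and 2iJ, 3 of the 9 genes were past a log2 ratio of 1 with the higher level in 2iJ+B−A, against 5.81% of all genes, and 2 with the lower level, against 3.17% of all genes. Those higher were Sox21, Sox9 and Sox11, and those lower were Sox13 and Sox3. Sox3 reached 1 CPM only in 2i−L and 2iJ, and Sox9 only in 2iJ+B−A and TSCs. A difference was thus built into the comparison of both genes. The 3 higher genes belong to different Sox groups, and Sox4, the SoxC relative of Sox11, had a log2 ratio of 0.57 (interval 0.46 to 0.69). All 9 differed beyond counting error, 4 of them upward and 5 downward. The median log2 ratio of the 9 was −0.44, and that of all genes −0.00. The pseudocount bore on 3 of these calls: with 1 CPM in place of 0.5, only Sox21 and Sox13 were past the mark, and Sox9 stood at 0.93, Sox11 at 0.93 and Sox3 at −0.77. With 0.1 CPM all 5 were past it, with Sox9 at 2.81, Sox11 at 1.13 and Sox3 at −1.69. Measured from 2i−L, the log2 ratio of Sox4 was 1.10 and so past the mark.

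**Figure D3:**
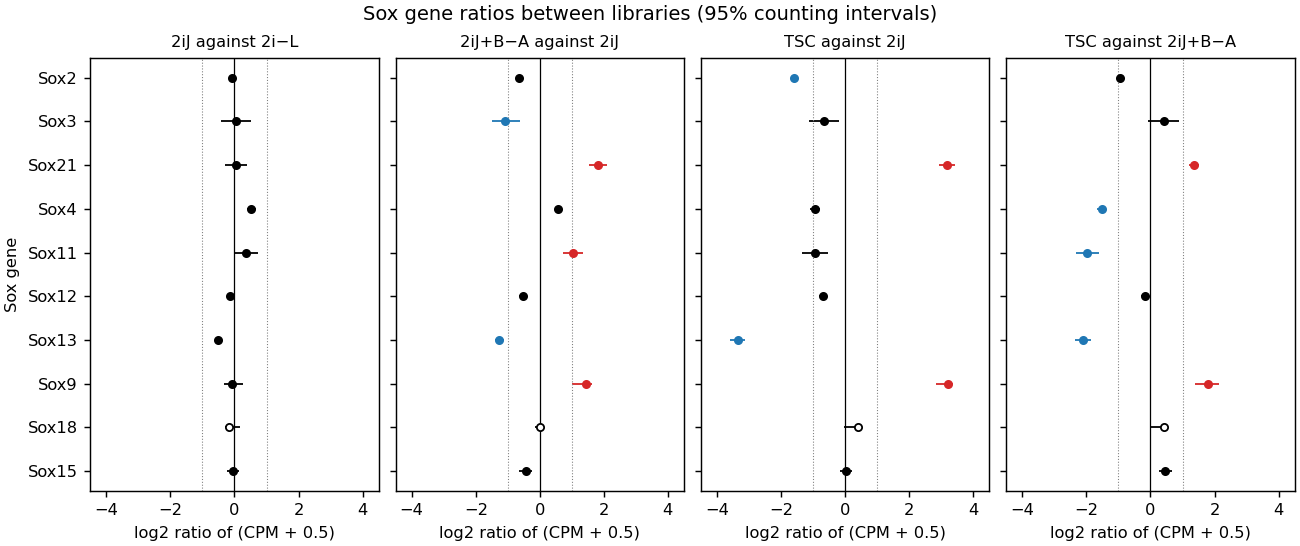
Log2 ratio of (CPM + 0.5) of each Sox gene in 4 comparisons of libraries, with 95% counting intervals. Red points are past a log2 ratio of 1 upward, blue points past it downward, black points lie between, and the open point is Sox18, which was below 1 CPM in all libraries. Sox21 and Sox9 are red in the 3 comparisons from the second on, and Sox13 is blue in them.

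Between TSCs and 2iJ, Sox21 and Sox9 were past the mark with the higher level in TSCs, against 19.4% of all genes, and Sox2 and Sox13 with the lower level, against 17.6% of all genes. Sox9 reached 1 CPM only in 2iJ+B−A and TSCs, so a difference from 2iJ was built into its being compared. A share of 2 in 9 in either direction is close to those of all genes. Between TSCs and 2iJ+B−A, Sox21 and Sox9 were again past the mark upward, against 16.4% of all genes, and Sox4, Sox11 and Sox13 downward, against 16.2%. The median log2 ratio of the 9 genes was −0.70 between TSCs and 2iJ and −0.17 between TSCs and 2iJ+B−A, where that of all genes was 0.00 in both. These comparisons share the libraries of 2iJ, 2iJ+B−A and TSCs, so they are not independent of each other.

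Set side by side, the log2 ratios of the BMP4 culture and of TSCs, each over 2iJ, were 1.81 and 3.17 for Sox21, 1.44 and 3.22 for Sox9, −1.26 and −3.36 for Sox13, −0.65 and −1.59 for Sox2, and −0.53 and −0.70 for Sox12. For Sox3 they were −1.10 and −0.67, and so further from 2iJ in the BMP4 culture. For Sox15 they were −0.44 and 0.02, the latter within counting error. For Sox4 they were 0.57 and −0.95, and for Sox11 1.03 and −0.95. The SoxC genes Sox4 and Sox11 thus differed from 2iJ upward in one library and downward in the other.

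**Figure D4:**
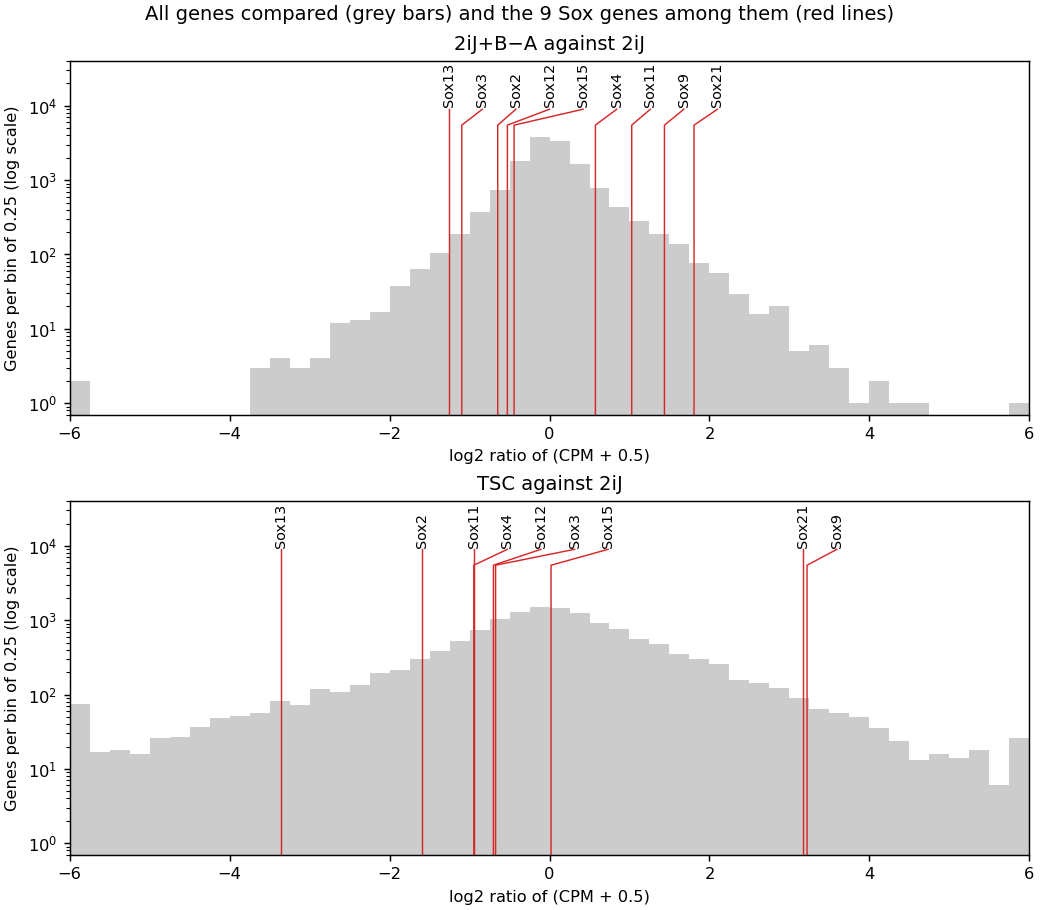
Histograms of the log2 ratio of (CPM + 0.5) over all 14263 genes compared, with a log axis of genes per bin of 0.25 and values beyond 6 in size placed in the end bins. Red lines mark the 9 Sox genes, which reach 1.81 (Sox21) and −1.26 (Sox13) in 2iJ+B−A against 2iJ and 3.22 (Sox9) and −3.36 (Sox13) in TSCs against 2iJ.

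Sox2 and its partner Oct4 (Pou5f1) had different levels in TSCs. Oct4 was at 899, 885, 658 and 1.34 CPM in 2i−L, 2iJ, 2iJ+B−A and TSCs, so that TSCs held 0.149% of the level in 2i−L, where Sox2 held 31.7%. In 2iJ+B−A Oct4 held 73.2% and Sox2 61.1% of the level in 2i−L. Of stretches of 126 bases along the Oct4 transcript, 22.0% matched another place in the genome equally well, and read pairs that map equally well to several places are not counted. Other POU factors can also pair with SOX proteins. Going from 2iJ to TSCs, Pou2f1 stood at 169 and 72.4 CPM and Pou2f3 at 4.75 and 0.883 CPM. Pou3f3, below 1 CPM in every library, had 11 and 34 counts (log2 ratio 0.84, interval 0.32 to 1.27), and Pou3f2 had 8 and 0. Of the 4 POU genes compared, Oct4 included, none was past the mark upward there, against 19.4% of all genes, and 3 were past it downward, against 17.6%.

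Among 6 genes with a known composite Oct–Sox element, 5 were past the mark downward between TSCs and 2iJ, against 17.6% of all genes, and Utf1 was past it upward, against 19.4%. The median log2 ratio of the 6 was −7.46, and that of all genes 0.00. Fgf4, a growth factor that mESCs secrete, had 6189, 4603, 3436 and 1 counts in 2i−L, 2iJ, 2iJ+B−A and TSCs. Nanog, a homeobox factor of pluripotency, was at 845, 700.3, 444 and 2.65 CPM in that order. Lefty1, a Nodal inhibitor, was at 183, 128, 0.373 and 0.427 CPM. Utf1, a chromatin‐associated factor singled out after its values were seen, was at 51.4, 66.1, 34.5 and 174 CPM and was thus highest in TSCs. Between 2iJ+B−A and 2iJ only Lefty1 of the 6 was past the mark, downward, against 3.17% of all genes. Lefty1 reached 1 CPM only in 2i−L and 2iJ, so a difference was built into its being compared. The median log2 ratio of the 6 was −0.70. That of Sox2 was −0.65.

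**Figure D5:**
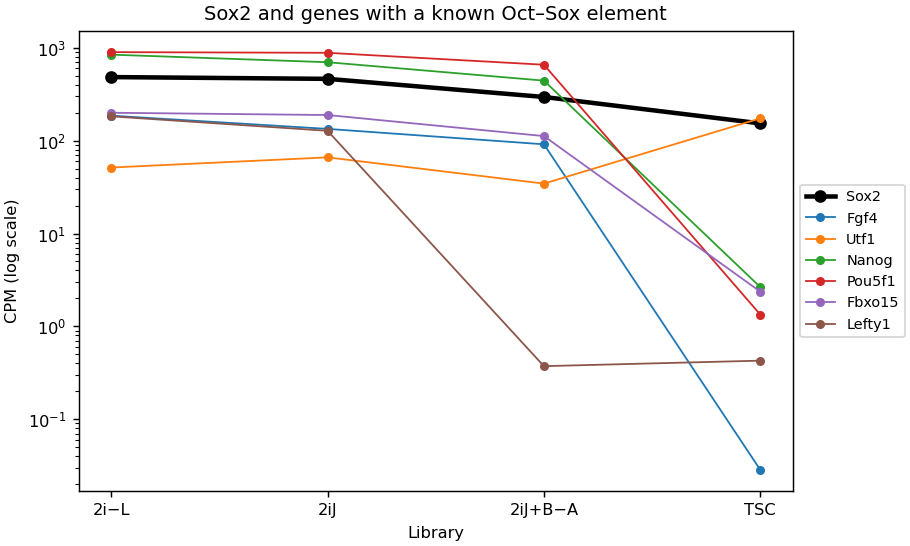
CPM on a log axis of Sox2 (black) and of 6 genes with a known Oct–Sox element in the 4 libraries, with lines that only join the points of a gene. In TSCs, Sox2 (154 CPM) and Utf1 (174 CPM) stand above the other 5 genes, which are at 2.65 CPM or less.

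Genes of cartilage, of neural progenitors and of endothelium, where other Sox members are known to act, lay on both sides of the mark. Of all genes, 5.81% were past it upward and 3.17% downward between 2iJ+B−A and 2iJ, and 19.4% and 17.6% between TSCs and 2iJ. Of 5 cartilage genes compared that depend on Sox9 elsewhere, none was past the mark between 2iJ+B−A and 2iJ. Between TSCs and 2iJ, Col11a2 was past it upward (log2 ratio 2.53) and Acan (−1.53) and Sox6 (−1.35) downward, as was Col9a1, with 88 and 0 counts in 2iJ and TSCs. Col11a2 reached 1 CPM only in TSCs, and Col9a1 only in 2iJ and 2iJ+B−A, so differences were built into their being compared. Of 3 neural progenitor genes compared, Pou3f2 was past the mark upward (1.30) and Pax6 downward (−1.86) between 2iJ+B−A and 2iJ, and none was past it between TSCs and 2iJ. Pou3f2 reached 1 CPM only in 2iJ+B−A, so its upward difference was built into its being compared. Of 5 endothelial genes compared, Kdr (4.05) and Cdh5 (3.77) were past it upward and 3 were past it downward between TSCs and 2iJ. Of those 3, Tek had 330 and 1 counts in 2iJ and TSCs (log2 ratio −4.26, interval −4.34 to −3.92) and Cldn5 had 96 and 0. Cdh5 reached 1 CPM only in TSCs, and Cldn5 only in 2i−L and 2iJ, so the same limit holds for them.

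Marker sums of some lineages were higher in 2iJ+B−A than in 2iJ, as were Sox21, Sox9 and Sox11, and the pluripotency and mesoderm sums were lower. The 9 pluripotency markers summed to 4231 and 2884 CPM in 2iJ and 2iJ+B−A. Of these 9, 2 (Klf4 and Tbx3) were past the mark upward, against 5.81% of all genes, and 1 (Dppa5a) downward, against 3.17%. The 7 primitive endoderm markers summed to 19.7 and 47.7 CPM in 2iJ and 2iJ+B−A, with 4 of 6 compared past the mark upward, against 5.81% of all genes, and stood at 10.9 CPM in 2i−L and 56.2 CPM in TSCs. Of those 4, Sox17 reached 1 CPM only in 2iJ+B−A, and Gata6 only there and in TSCs. A difference was thus built into their being compared. The 8 TSC markers summed to 103 and 226 CPM in 2iJ and 2iJ+B−A, with 4 past the mark upward and 1, Eomes, downward, against 3.17% of all genes. Hand1 made up most of that difference, at 1.31 and 103.5 CPM, and the other 7 summed to 102 and 122 CPM, with Elf5 at 2 and 5 counts. The 5 markers of differentiated trophoblast summed to 8.04 and 50.7 CPM, with Prl3d1, Prl2c2 and Tpbpa at 0 counts in both, and to 15.7 CPM in TSCs. Of 3 compared, 2 were past the mark upward, Gcm1 (5.62 and 28.03 CPM in 2iJ and 2iJ+B−A) and Ascl2 (2.417 and 22.65 CPM). The 5 mesoderm markers summed to 4.31 and 1.57 CPM, of which T made up 2.85 and 0.160 CPM. The 7 feeder fibroblast markers summed to 177 and 279 CPM, of which Acta2 made up 142 and 259 CPM, and the other 6 summed to 35.9 and 20.3 CPM. Of the 6 compared, none was past the mark upward and Col1a1 was past it downward. The part of such cells in the Sox levels was not tested.

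Annotated neighbors bear on the counts of 3 members. The antisense gene Gm17419 covers 54.6% of the exon of Sox4, and a second, shorter gene model also named Sox4, with 0 counts, covers 8.45% on the same strand. Without regard to strand, pairs on shared stretches are set aside, and the count of Sox4 was 29.5% to 32.2% of the stranded count. For Sox21, where the antisense gene Gm4675 covers 18.8%, it was 79.6% to 84.7%, and for Sox15, which meets Mpdu1 over 31 bases, 97.6% to 99.7%. With the unstranded count, the log2 ratios of Sox21 and Sox15 moved by less than counting error, while that of Sox4 between TSCs and 2iJ+B−A was −1.34, outside its counting interval of −1.66 to −1.38. None of the 126‐base stretches along the transcripts of the 10 genes matched another place equally well.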

How the data were processed

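RNA‐seq of 4 mouse stem cell libraries was analysed, 1 per condition. The authors trimmed paired reads of 126 bases with TrimGalore and cutadapt, mapped them to NCBIM37 with STAR 2.4.2a and deposited raw counts of read pairs per Ensembl gene. The annotation release is not given in the sources used here. STAR counts pairs that map to 1 place, and 6.72% to 7.01% mapped to several. The 4 summary lines of each table were left out, and genes took 82.2% to 83.6% of all pairs.

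The reverse‐stranded count (column 4) was used, which was 29.1 to 32.1 times that of the opposite strand. Symbols came from a table of Ensembl gene names, which matched 37205 identifiers, and exons from GENCODE M1 on NCBIM37. Where a symbol had several identifiers, the one with the most counts was taken. CPM used TMM factors from edgeR 4.0.16 in R 4.3.3, and genes at 1 CPM or more in at least 1 library entered the comparisons. A pseudocount of 0.5 CPM preceded each log2 ratio, which understates changes of low genes. Past the mark means at or beyond 1 or −1 on the log2 scale, a description without a test, since no model with replicates can be fitted. Intervals are 95% Clopper–Pearson intervals of a gene's share of counts, or Poisson intervals of levels, and cover counting error only. The ratio code was tested on simulated counts. Uniqueness was checked with minimap2 2.31 on stretches of 126 bases every 10 bases.

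All members are named. From other lists, at most 4 genes with the largest ratios are named, besides Utf1, Pou3f3 and markers, which were named after their values were seen. Levels by longest transcript for all members, and marker sums without the gene that differed most, were added after seeing the data. The members and lists were chosen with earlier results of these data known. Alternatives were DESeq2 1.42.0 size factors, library totals, the unstranded count, other pseudocounts, filters, marks, references and lengths. Python 3.11.15 was used with scipy 1.17.1.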

Additional observations from a re-analysis of the deposited data

How the results depend on the processing

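No p‐value could be given with 1 library per condition, so variation between cultures is not measured. No paired analysis was possible because each condition has 1 library. With DESeq2 size factors, all 40 log2 ratios of the 10 genes in 4 comparisons stayed within their counting intervals, as did 39 with the unstranded count and 38 with library totals, and 34 and 38 with pseudocounts of 0.1 and 1 CPM. With 2i−L as the reference 10 of 20 did. No ratio past the mark changed sign under any alternative. Between 2iJ+B−A and 2iJ, the number of genes past the mark, 5 as reported, was 2 with a pseudocount of 1 CPM, 2 with a minimum of 10 CPM and 0 with a mark of 2. Between TSCs and 2iJ it was 4, and 8 with the lowest mark tried. Between TSCs and 2iJ+B−A it was 5, and 3 with a minimum of 10 CPM and 1 with a mark of 2. The share held by Sox2 was 80.7% in 2i−L and 81.4% in 2iJ with the length of the longest transcript. It was 82.6%, 83.6%, 80.6% and 67.5% in 2i−L, 2iJ, 2iJ+B−A and TSCs with the unstranded count, which lowers Sox4. At this depth, genes at 3 counts or fewer (Sox9 and Sox18 in some libraries) cannot be ordered.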

Other observations

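Of 8 further Sox genes listed, 7 had an identifier and 2 reached 1 CPM in a library. Sox6, a SoxD relative of Sox13, had 62, 131, 77 and 42 counts in 2i−L, 2iJ, 2iJ+B−A and TSCs, and so was highest in 2iJ, where Sox13 was highest in 2i−L. Sox10, the neural crest relative of Sox9, had 6, 1, 3 and 44 counts in the same order, and reached 1.25 CPM in TSCs alone. As it passed the minimum of 1 CPM only through TSCs, a higher level there was built into its being compared. Sox8, the third SoxE gene, had 8, 14, 30 and 12 counts and was highest in 2iJ+B−A, though below 1 CPM in every library. Its log2 ratio between 2iJ+B−A and 2iJ was 0.52 (interval 0.006 to 0.98). The highest library was thus TSCs for Sox9 and Sox10 and 2iJ+B−A for Sox8, and the low counts of Sox9 and Sox10 in the other libraries do not allow a full order. Sox5 and Sox30 also stayed below 1 CPM, and Sox14 and Sry had at most 2 counts in any library.

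Sox2ot, the noncoding gene that encloses Sox2, had 73, 121, 49 and 13 counts in 2i−L, 2iJ, 2iJ+B−A and TSCs. It was highest in 2iJ, whereas Sox2 was highest in 2i−L, and both were lowest in TSCs.

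The genes whose pattern over the 4 libraries lay closest to that of a Sox gene were sought among 10263 genes at 10 CPM or more in a library, by the distance between centered log2 levels. For Sox2 the closest were Cc2d2a (distance 0.0586), Gprc5b (0.0951) and 2810025M15Rik (0.0985). For Sox21 they were Rab15 (0.176), Itprip (0.251) and Dusp9 (0.257). For Sox4 they were the imprinted gene Mest (0.146), Letmd1 (0.159) and Ncoa7 (0.171). For Sox13 they were Evc (0.238), Gng3 (0.276) and Nfib (0.279), for Sox12 BC030867 (0.0491), Zfp710 (0.0801) and Tfdp1 (0.0947), and for Sox15 3110043O21Rik (0.0151), Klf16 (0.0244) and Mink1 (0.0385). With 4 libraries and this many genes, such likeness is a description only.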
